A study of Mus musculus with 8 samples.

Results

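DL-Pou3f1 is the smallest of the 7 excitatory neuron subtypes that the authors annotated in single-cell RNA sequencing of the mouse prefrontal cortex (PFC). DL stands for deep layer, and the name comes from Pou3f1, a POU-domain transcription factor. All cells with that name in the deposited annotation were taken, 62 of 2775 annotated excitatory neurons and of 8997 annotated PFC cells, and their counts were read from the matrix of each library by barcode. The mice were male C57BL/6N, aged 8 to 10 weeks by the labels (the study's methods give an older age). The Setd1a+/- mice carried a CRISPR-Cas9 frameshift mutation in 1 copy of Setd1a, a histone H3K4 methyltransferase gene, and the wild-type (WT) mice were their littermates. Each genotype had 2 libraries, replicates 1 and 2, each library held dissociated PFC of 2 pooled mice, and each replicate held 1 library of each genotype. DL-Pou3f1 had 7 cells in WT replicate 1, 35 in WT replicate 2, 12 in Setd1a+/- replicate 1 and 8 in Setd1a+/- replicate 2. These cells held 59593, 206753, 112505 and 51332 unique molecular identifiers (UMIs, 1 for each captured transcript), so 1 UMI was worth 16.8, 4.84, 8.89 and 19.5 CPM, the counts of a gene per 1000000 UMIs of the group.

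Excitatory neurons of the deep cortical layers differ by where their axons go. Extratelencephalic neurons of layer 5 send axons out of the telencephalon, the part of the forebrain that holds cortex and striatum. Their targets include the brainstem and spinal cord, and the transcription factors Fezf2 and Bcl11b (also called Ctip2) are needed for their fate. Intratelencephalic neurons project within the cortex and striatum, corticothalamic neurons of layer 6 project to the thalamus, and near-projecting neurons keep their axons local. Pou3f1 is known as a marker of layer 5 extratelencephalic neurons. The label of the subtype comes with 4 genes, Pou3f1 (chr4:124656807-124660655, plus strand), Parm1 (chr5:91517615-91626894, plus strand), Stxbp6 (chr12:44852484-45074709, minus strand) and Chst8 (chr7:34674468-34812711, minus strand), in GENCODE vM21 coordinates of GRCm38, the assembly that mm10 names.

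The 62 cells lay in separate places of the deposited embedding, a map (UMAP) made by the authors from the expression of the excitatory neurons. On its first axis 39 cells lay between -4.88 and -1.42 and 23 cells between 3.09 and 9.36, with none between. Of the 39 cells, 38 formed a compact island in which no cell of another subtype lay, and 1 cell of WT replicate 2 lay apart from it. The 23 cells were scattered among DL-Etv1, DL-Nnat and SL-Cux2 neurons. The division at 0 on that axis was made after the data were seen, and since the embedding was built from the same genes, differences in expression between the 39 and the 23 cells are descriptions with no test.

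**Figure D1:**
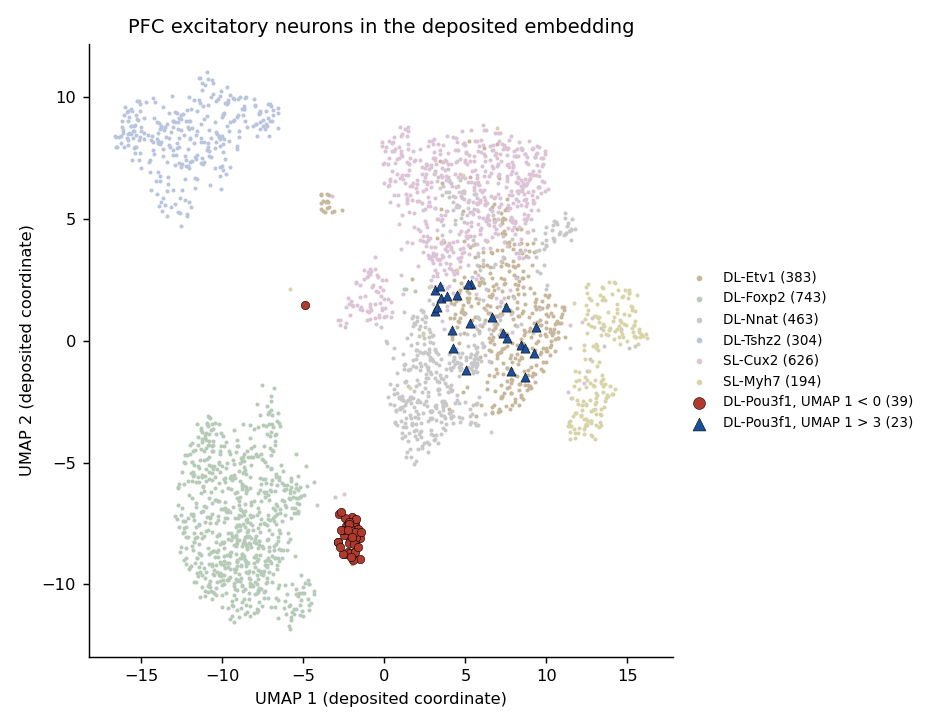
Deposited embedding of the 2775 PFC excitatory neurons, 1 point a cell, with both axes in the deposited UMAP coordinates and the number of cells of each subtype in the key. The 39 DL-Pou3f1 cells under 0 on UMAP 1 (red circles) sit in an island apart from the other subtypes, except 1 cell, and the 23 above 3 (blue triangles) sit among DL-Etv1, DL-Nnat and SL-Cux2 neurons.

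The label held for the 39 cells and not for the 23. Pou3f1 had 41 UMIs in the 39 cells, found in 25 of them (64.1%), and none in the 23, where the rate of the 39 cells would have given 13.7 UMIs. Its level over the 39 cells was 127 CPM, at least 4.57-fold higher than the 27.8 CPM that a count of 0 allows in the 23 cells (3 UMIs over the group). Bcl11b had 125 UMIs in 36 of the 39 cells and none in the 23, at least 13.9-fold lower there. Parm1, a mucin-like membrane protein, had 55 UMIs in the 39 cells and 1 in the 23, and Chst8, a sulfotransferase that modifies sugar chains, had 20 and 1. Fezf2 had 57 and 3. Stxbp6, a SNARE-binding protein also called amisyn, differed less: 360 CPM in the 39 cells (95% Poisson interval 297 to 432) and 102 CPM in the 23 (50.9 to 183). Slc17a7, the vesicular glutamate transporter that marks excitatory neurons, was found in 32 of the 39 cells and in 16 of the 23. At least 2 of the 4 label genes (Pou3f1, Parm1, Stxbp6 and Chst8) together with Bcl11b or Fezf2 were found in 32 of the 39 cells and in 0 of the 23, which does not say how many of those shallower cells express them.

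The 23 cells were shallower, and depth bears on such counts. Their median was 3334 UMIs and 1815 genes a cell, against 8783 UMIs and 3329 genes in the 39 cells. When every cell was thinned to 2000 UMIs, Pou3f1 was found in 7 of 39 cells and in 0 of 22 (1 of the 23 was too shallow), Bcl11b in 17 of 39 and 0 of 22, and Stxbp6 in 17 of 39 and 6 of 22. At that depth the median cell had 1245 genes among the 39 and 1192 among the 22. Mitochondrial UMIs made up 5.35% of the median cell among the 39 and 6.67% among the 23, and from 2.95 to 4.98% in the other 6 subtypes.

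The 23 cells were unevenly spread over the libraries. They were 1 of 7 DL-Pou3f1 cells in WT replicate 1 and 17 of 35 in WT replicate 2, and 0 of 12 in Setd1a+/- replicate 1 and 5 of 8 in Setd1a+/- replicate 2. In replicate 1 they were therefore 5.26% of the DL-Pou3f1 cells (95% Wilson interval 0.935 to 24.6) and in replicate 2 51.2% (36.8 to 65.4), in both genotypes alike in direction. With the 23 shallower cells counted in, the DL-Pou3f1 cells of replicate 2 had medians of 4697 and 5364 UMIs against 10521 and 9437 in replicate 1, in WT and Setd1a+/- order. Among the 39 cells alone the medians were 8262 and 7288 UMIs in replicate 2 and 8114 and 9437 in replicate 1, in the same order. The part of depth and of the replicate in the split was not tested. Setd1a+/- replicate 2 had 3 cells in the island, where 1 UMI was worth 49.4 CPM, so each value of that library for the 39 cells rests on few UMIs.

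**Figure D2:**
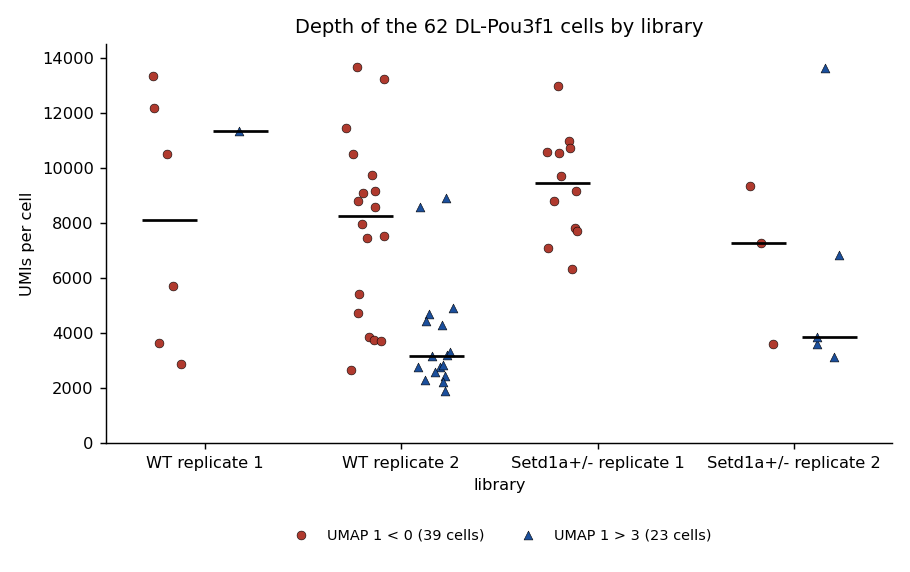
UMIs per cell (linear axis) of the 62 DL-Pou3f1 cells in the 4 libraries, 1 point a cell, with a bar at the median of each group. In WT replicate 2 the median of the 17 scattered cells (blue triangles) is 3189 and that of the 18 other cells (red circles) 8262, and Setd1a+/- replicate 1 has no scattered cell.

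The embedding was made from principal components of the same expression values, so neighbours over the 30 deposited components and the profiles below describe the division and are no further evidence of it. Of the 15 nearest neighbours of each of the 39 cells, 97.6% were others of the 39, and no neighbour was 1 of the 23. Neighbours of the 23 cells were DL-Etv1 neurons in 45.2%, DL-Nnat in 21.4%, SL-Cux2 in 69 of 345 and others of the 23 in 11.9%. Over the 1000 genes that varied most between the other subtypes, each cell was set against the mean profiles of the 6 subtypes and of the 39 cells (without itself). All 39 cells correlated best with the others of the 39, and the 23 with DL-Etv1 (19 cells) or DL-Nnat (4 cells). The pooled profile of the 23 had a Pearson correlation across those genes of 0.91 with DL-Etv1 and 0.73 with the 39 cells, and the 39 cells had 0.79 with DL-Etv1, 0.77 with DL-Nnat and 0.56 with DL-Tshz2. Genes are not independent replicates.

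Against the mean of the 6 other subtypes 3 of the 4 label genes were at least 2-fold higher in every library, in the 62 cells and in the 39. The level of Pou3f1 in all 62 cells was 50.3 and 77.4 CPM in WT replicates 1 and 2 and 160 and 77.9 CPM in Setd1a+/- replicates 1 and 2. The mean of the other 6 subtypes was 3.08, 3.12, 3.17 and 3.36 CPM. DL-Pou3f1 was above it in all 4 libraries, with a mean log2 ratio of 2.84 ± 0.62 (SD, n = 4 libraries, on CPM plus 10), which was 3.34 ± 0.65 in the 39 cells alone. Among the other subtypes SL-Myh7 had 6.64 CPM (pooled, 95% Poisson interval 3.04 to 12.6), SL-Cux2 6.08, DL-Nnat 2.98 and DL-Etv1 2.44, and DL-Tshz2 had no UMI. The interval of SL-Cux2 was 3.90 to 9.05, so it and SL-Myh7 do not differ beyond counting error, and neither do DL-Nnat (1.43 to 5.48) and DL-Etv1 (1.17 to 4.49). Of the 76 excitatory neurons with a Pou3f1 UMI, 25 were among the 39 cells and 51 belonged to the other 6 subtypes. By UMIs, the 39 cells held 43.2% of those of Pou3f1 and 1.68% of those of all genes in excitatory neurons.

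Parm1 was at 83.9, 111, 213 and 77.9 CPM in the same order of libraries, against 16.6, 10.7, 15.7 and 7.52 CPM in the mean of the other subtypes. Its mean log2 ratio was 2.46 ± 0.54, with DL-Etv1 next at 23.9 CPM pooled. Stxbp6 was at 369, 285, 311 and 214 CPM against 42.1, 64.8, 33.5 and 59.3, a mean log2 ratio of 2.36 ± 0.61. DL-Etv1 (113 CPM) and SL-Myh7 (106 CPM) carried Stxbp6 too, at levels whose Poisson intervals overlap (103 to 124 and 89.6 to 125), and DL-Foxp2 had 2.62 CPM. Chst8 was at 50.3, 62.9 and 44.4 CPM in the first 3 libraries and had no UMI in Setd1a+/- replicate 2, which allows up to 58.4 CPM there. The mean log2 ratio of Chst8 was 1.34 ± 1.25, so it did not meet the threshold of 2-fold in every library that the other 3 label genes met.

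**Figure D3:**
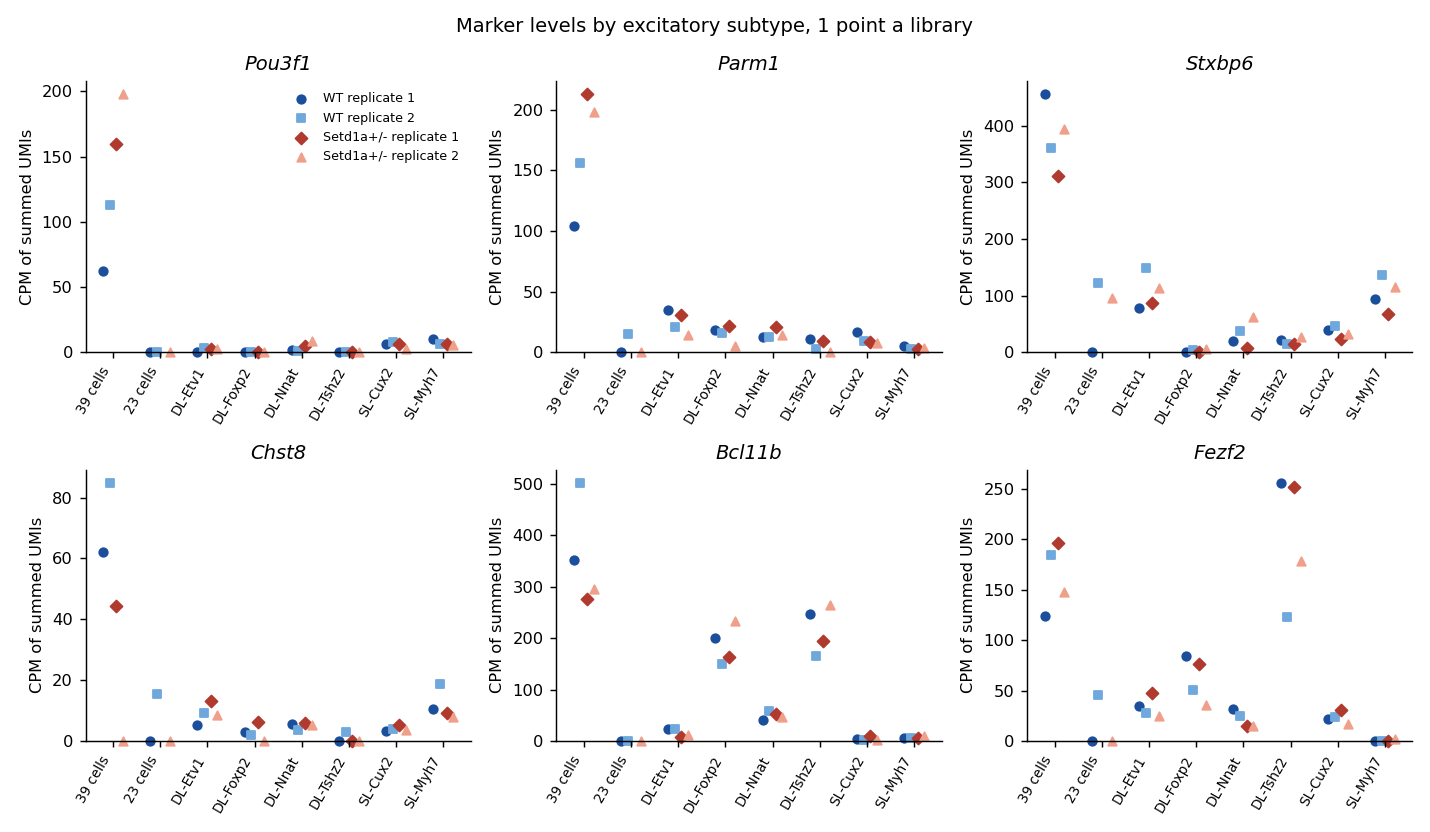
Levels of the 4 label genes and of Bcl11b and Fezf2 in CPM of summed UMIs (linear axes from 0), 1 point a library, for the 39 and the 23 DL-Pou3f1 cells and the 6 other excitatory subtypes; Setd1a+/- replicate 1 has no point for the 23 cells. For Pou3f1 and Parm1 all points of the 39 cells lie above all others, and Fezf2 reaches higher values in DL-Tshz2.

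Other PFC cell types carried label genes too. Pou3f1 was at 41.9 CPM in oligodendrocyte progenitors and 32.1 CPM in oligodendrocytes, each pooled over libraries, and at 0.222 CPM in endothelial cells. Parm1 was at 186 CPM in inhibitory neurons, and Chst8 at 110 CPM in newly formed oligodendrocytes. Markers of oligodendrocyte progenitors had 1 UMI in all 62 cells, with 3 of 4 markers at 0, and none in the 39 cells that held the Pou3f1 UMIs. Mature oligodendrocyte markers (6 genes, 2 of them at 0) summed to 149 CPM in the 62 cells, between 97.4 and 201 CPM by library, against 94.4 to 154 CPM in the other excitatory neurons and 55141 to 72559 CPM in oligodendrocytes themselves. Interneuron markers (6 genes, 2 at 0) summed to 16.8 to 53.2 CPM by library against 8.61 to 34.3 in the other excitatory neurons, and astrocyte markers (5 genes, none at 0) to 0 to 135 against 61.6 to 90.4. Microglia markers (6 genes, none at 0) summed to 19.3 to 44.4 CPM against 19.4 to 33.8, and endothelial markers (5 genes, 2 at 0) to 0 to 16.8 against 9.21 to 21.9. By group, interneuron markers were at 83.5 CPM (9 UMIs) in the 23 cells and 18.6 CPM (6 UMIs) in the 39, and astrocyte markers at 121 CPM (13 UMIs) and 65.1 CPM (21 UMIs). The other lists were lower in the 23 cells or had 1 UMI in all. The part of these markers in the split was not tested. Of the 62 cells, 3 held UMIs of 3 or more markers of 1 other cell type, 2 of oligodendrocytes and 1 of astrocytes, all among the 39. Of the 2713 other excitatory neurons, 51 did so for oligodendrocytes and 10 for astrocytes. For interneurons, oligodendrocyte progenitors, microglia and endothelial cells the numbers were 8, 2, 3 and 7. As a rough gauge of free RNA, endothelial cells had a Pou3f1 UMI in 0.0640% of cells, a Bcl11b UMI in 0.576% and a Stxbp6 UMI in 11.1%. Their median was 2368 UMIs, a lower depth than that of the 39 or the 23 cells. Stxbp6 was at 44.0 CPM in endothelial cells and 53.5 CPM in all excitatory neurons, both pooled. Whether endothelial UMIs of these genes were free RNA or expression was not tested. No barcode of the 62 cells belonged to an annotated cell of another library, but most had some UMIs in the library with the same replicate number, with a median of 15 UMIs and up to 504 for WT replicate 1 cells in Setd1a+/- replicate 1.

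Across all 11362 genes with at least 50 UMIs in the excitatory neurons, 12 genes (0.106%) were at least 2-fold higher in the 62 cells than in the mean of the other 6 subtypes in all 4 libraries, and 67 (0.59%) were at least 2-fold lower. In the 39 cells the counts were 34 (0.299%) and 141 (1.24%), and all 12 higher genes and 61 of the 67 lower genes were among them. The annotation was built on these genes, so the counts describe the cells and are no test. A library with no UMI of a gene meets the lower threshold at this depth without showing a 2-fold difference. With such libraries set to 3 UMIs, 12 genes were lower in the 62 cells and 19 in the 39. Pooled over libraries, 64 of the 141 genes had no UMI in the 39 cells, and 113 of the 141 were at least 2-fold under the pooled mean of the others with a count of 0 set to 3 UMIs (63 of the 67 in the 62 cells). A call needs every library, so leaving 1 out can only keep or raise these counts. The 12 genes became 28 without WT replicate 1, 25 without WT replicate 2 and 27 without Setd1a+/- replicate 2. The 34 became 67 without WT replicate 1 and 53 without Setd1a+/- replicate 2. The 67 lower genes became 155 without WT replicate 2, 108 without Setd1a+/- replicate 1 and 106 without Setd1a+/- replicate 2, and the 141 became 301 without WT replicate 2 and 271 without Setd1a+/- replicate 1. The median log2 ratio of all genes was -0.16 for the 62 cells and -0.24 for the 39, and with edgeR's TMM factors -0.25 and -0.39; with those factors the 39 cells had 16 higher and 179 lower genes. By the mean over libraries alone, 66 genes (0.581%) were at least 2-fold higher and 416 (3.66%) lower in the 62 cells, and 164 (1.44%) and 903 (7.95%) in the 39.

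Besides the 3 label genes, 9 genes met the threshold in the 62 cells. Serpine2, a secreted inhibitor of thrombin and other serine proteases, was at 201, 87.1, 97.8 and 156 CPM in the order given above, against 13.2 to 22.8 CPM in the mean of the other subtypes, a mean log2 ratio of 2.27 ± 0.64. None of its 49 UMIs was in the 23 cells. Rab3c, a small GTPase of synaptic vesicles, was at 1024, 498, 800 and 448 CPM in the order given above against 144 to 218 CPM in the mean of the others (1.72 ± 0.67). Pex5l, also called TRIP8b, an auxiliary subunit of the HCN channels that carry the h-current, was at 117, 208, 187 and 273 CPM (1.86 ± 0.44). All 4 libraries of DL-Pou3f1 lay above all 4 means of the other subtypes for these 3 genes.

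The other 6 were Cxcl12, a chemokine (1.81 ± 0.29), Egln3, a prolyl hydroxylase of the hypoxia response (1.76 ± 0.47), the unnamed locus Gm19410 (1.70 ± 0.55), Bend5 (1.62 ± 0.21), Oma1, a mitochondrial inner membrane protease (1.58 ± 0.39), and Etv5, an ETS transcription factor (1.48 ± 0.35). Egln3, Bend5 and Oma1 rest on 17, 25 and 18 UMIs in all. In the 39 cells 22 further genes met the threshold. They include Igfbp4, which binds insulin-like growth factors (2.45 ± 1.02), Reln, the secreted glycoprotein reelin (2.08 ± 0.77), Bcl11b (1.99 ± 0.51), Vat1l (1.93 ± 0.56), Grik2, a kainate receptor subunit (1.91 ± 0.21), the transcription factor Bhlhe40 (1.69 ± 0.52), Pcdh8, a protocadherin (1.61 ± 0.44), Crim1 (1.57 ± 0.41), the repressor Zbtb18 (1.31 ± 0.22), Crym, which binds thyroid hormone (1.27 ± 0.22), and Gap43, a protein of growing axon ends (1.18 ± 0.16). These 11 were picked from the 22 after their values were seen. In the 39 cells 1 UMI was worth 49.4 CPM in Setd1a+/- replicate 2. There 1 UMI can meet the higher threshold for a gene with a low mean in the others. Pcdh8, Vat1l and Egln3 had 1 UMI each in that library, against 8.06, 10.6 and 3.08 CPM in the mean of the others.

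**Figure D4:**
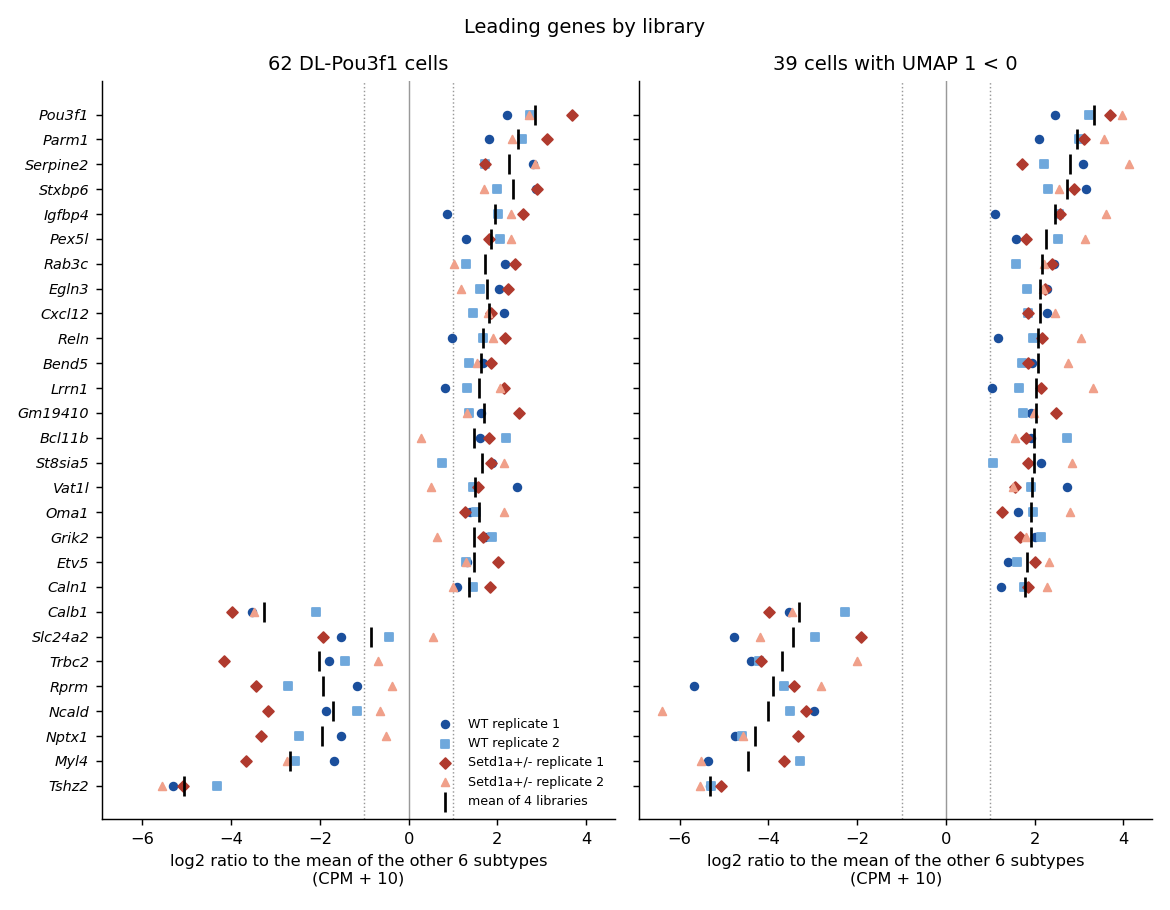
Log2 ratio of DL-Pou3f1 to the mean of the other 6 excitatory subtypes (CPM plus 10), 1 point a library and a bar at the mean of 4 libraries, for the 20 highest and 8 lowest of the genes that met the threshold in the 39 cells. Left, all 62 cells; right, the 39 cells of UMAP 1 under 0; dotted lines mark a 2-fold difference. Rprm, Ncald, Nptx1 and Slc24a2 lie further left in the 39 cells than in all 62.

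Of 12 leading genes looked up in the RefSeq promoter table (GRCm38.p6), 10 had an entry, and the 250 bases before the RefSeq transcription start of Chst8 and Bcl11b are shown as examples of a label gene and of the extratelencephalic factor. The octamer ATGCAAAT that POU factors bind was in 1.60% of the 32851 promoters on either strand and in none of the 10. The GC box GGGCGG was in 32.7% of them, and in 6 of the 10; capitals mark it, on either strand, in the Chst8 sequence (4 matches), and Bcl11b had no match. The window of Bcl11b ends at the RefSeq start, and 188 of its bases lie within the gene as GENCODE vM21 draws it. The regions are chr7:34812712-34812961 and chr12:108003415-108003664, both read from the minus strand.
Chst8: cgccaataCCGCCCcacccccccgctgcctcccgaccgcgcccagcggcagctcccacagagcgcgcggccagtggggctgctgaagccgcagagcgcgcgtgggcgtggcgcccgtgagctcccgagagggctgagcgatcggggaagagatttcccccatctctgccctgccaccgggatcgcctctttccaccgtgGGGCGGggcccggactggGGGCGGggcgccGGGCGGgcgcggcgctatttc
Bcl11b: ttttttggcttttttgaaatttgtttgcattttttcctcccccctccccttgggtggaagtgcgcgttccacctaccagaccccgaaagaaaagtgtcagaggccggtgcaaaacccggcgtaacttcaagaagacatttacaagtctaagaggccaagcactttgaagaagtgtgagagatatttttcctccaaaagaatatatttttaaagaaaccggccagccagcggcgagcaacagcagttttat

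Layer 5 extratelencephalic genes were the one layer list with higher members and no lower ones. Of 12 tested genes of that list, 3 met the threshold as higher in the 39 cells (Bcl11b, Crym and Crim1) and none as lower, beside 0.299 and 1.24% of all genes tested, with a median of 0.94 beside -0.24 for all genes; in the 62 cells none met it and the median was 0.87. By the mean over libraries 5 of the 12 were at least 2-fold higher in the 39 cells and none lower, beside 1.44 and 7.95% of all genes. Bcl11b was at 352, 502, 276 and 296 CPM in the 39 cells, in the order of libraries above, against 86.7, 67.4, 72.3 and 94.5 CPM in the mean of the other subtypes. DL-Tshz2 (212 CPM) and DL-Foxp2 (171 CPM) also carried it, each pooled, while DL-Etv1 had 16.6 CPM. Fezf2 was at 124, 184, 196 and 148 CPM in the 39 cells and at 123 to 256 CPM in DL-Tshz2, so their levels overlap; the mean log2 ratio of Fezf2 was 1.37 ± 0.49 and did not meet the threshold in every library. Other members with values but no call were Ldb2 (0.97 ± 0.44), a cofactor of LIM transcription factors, and Pcp4, a calmodulin-binding protein (-0.14 ± 0.51). The list's other members were not all high: Etv1, also a layer 5 gene, was at 261 CPM in the 39 cells (208 to 323), 232 in DL-Etv1 (217 to 247) and 1048 in DL-Tshz2, a ratio of -0.24 ± 0.50.

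In the lists of other projection classes some members met the threshold as lower in the 39 cells and none as higher, beside 1.24% lower and 0.299% higher of all genes. In the near-projecting list these were 5 of 9 tested genes (Tshz2, Nxph1, Sla2, Trhr and Zcchc12). All but Zcchc12 had no UMI in the 39 cells, and Nxph1, Trhr and Sla2 were at least 4.20-fold, 2.29-fold and 1.23-fold lower. Lypd1 of that list was at -0.23 ± 1.66. The zinc-finger factor Tshz2 had no UMI in the 39 cells, at least 40.3-fold below the mean of 375 CPM over the other subtypes, which comes mostly from DL-Tshz2; DL-Etv1 and DL-Nnat had 3.66 and 4.77 CPM. Of 12 corticothalamic genes 5 met it (Tle4, Rprm, Tbr1, Sulf1 and Hs3st4), with a median of -1.49; Sulf1 had no UMI and was at least 1.79-fold lower. Nfib of that list was at 0.94 ± 0.33. In the intratelencephalic and superficial list 5 of 15 met it (Cux2, Rorb, Slc30a3, Calb1 and Lpl), with a median of -0.80; Lpl had no UMI and was at least 1.58-fold lower. With each library at 0 set to 3 UMIs, 1 near-projecting gene (Tshz2) was lower in all 4 libraries. So were 2 corticothalamic genes (Rprm, and Tbr1, which had no library at 0) and 0 of the third list. With only the summed count of the 39 cells treated so, 4 genes of each list were at least 2-fold under the pooled mean of the others. Cux2, a homeobox factor of the upper layers, had no UMI in the 62 cells, at least 6.80-fold below the mean of 47.5 CPM of the others. Calb1, the calcium buffer calbindin, had 2 UMIs in the 62 cells. With genes at 0 set to what 3 UMIs would give, these 3 medians were -0.70 (near-projecting, -1.39 otherwise), -1.03 and -0.65. Each of these lists has its own subtype among the 6 references, which raises the mean that DL-Pou3f1 was set against.

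**Figure D5:**
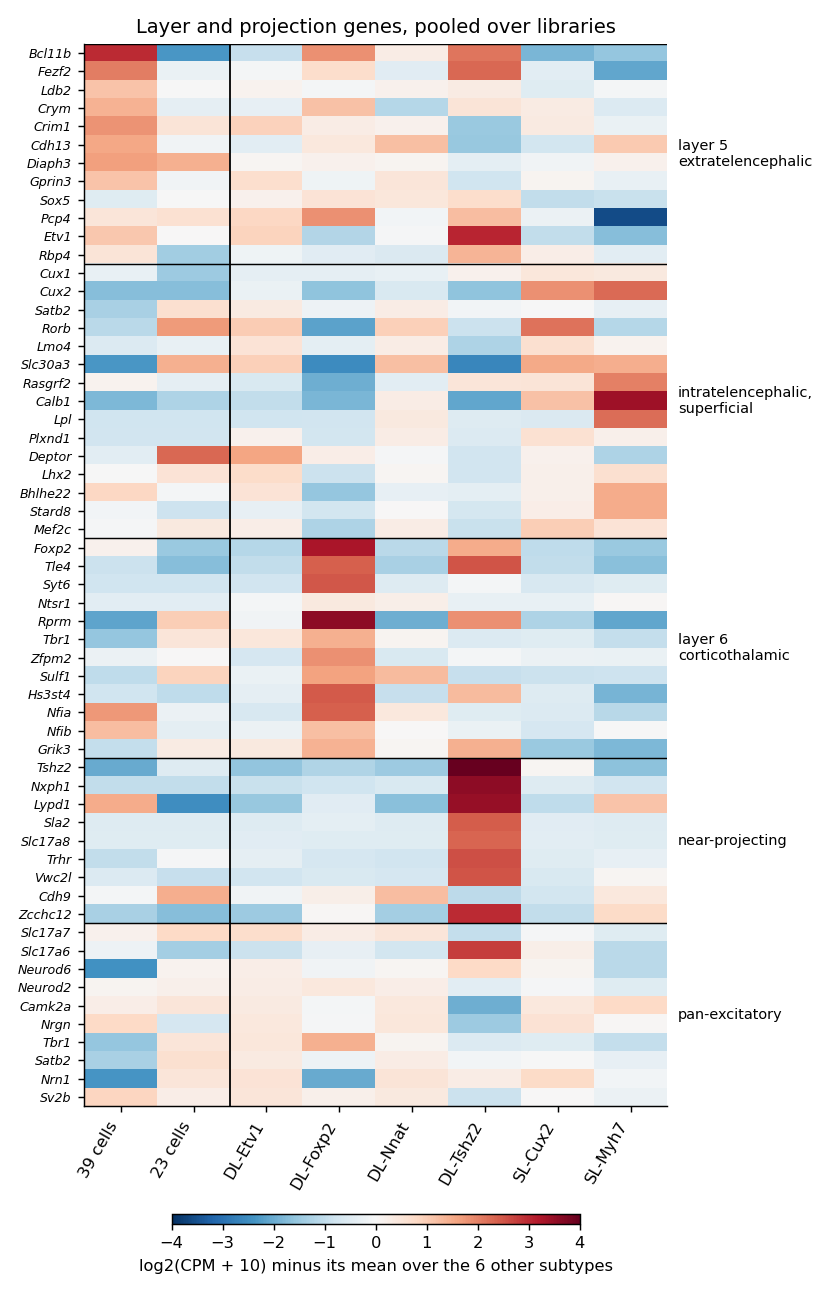
Heat map of layer and projection genes (down the side) in the 39 and 23 DL-Pou3f1 cells and the 6 other excitatory subtypes (across); colour gives log2(CPM + 10), pooled over libraries, minus the mean of that log over the 6 other subtypes, whereas the ratios in the text use the log of the mean CPM. Bcl11b and Fezf2 are red in the 39 cells and blue or white in the 23, and Slc30a3, Neurod6 and Nrn1 are blue in the 39 cells and not in the 23.

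Genes that most excitatory neurons share were uneven in the 39 cells. Of 10 pan-excitatory genes 3 were lower there: Neurod6, a basic helix-loop-helix factor of cortical excitatory neurons, at 62.2, 56.6, 107 and 98.8 CPM against 556, 432, 555 and 393 CPM in the mean of the others (-2.47 ± 0.48), Nrn1, the neurotrophic factor neuritin (-2.92 ± 1.01), and Tbr1 (-1.59 ± 0.47). Slc17a7 was at -0.03 ± 0.33, Camk2a at 0.11 ± 0.15 and Sv2b, a synaptic vesicle protein, at 0.76 ± 0.16. In the 23 cells Neurod6 was at 501 CPM and Nrn1 at 686 CPM, close to the 551 and 718 CPM of DL-Etv1, with Poisson intervals that overlap (376 to 653 and 528 to 574 for Neurod6, 539 to 862 and 692 to 744 for Nrn1). Among the lowest genes of the 39 cells were Tshz2, Myl4 (-4.46 ± 1.14), Nptx1, a secreted pentraxin of synapses (-4.31 ± 0.66), Ncald, the calcium sensor neurocalcin (-4.01 ± 1.60), Rprm (-3.89 ± 1.25) and Trbc2 (-3.69 ± 1.13). All 6 had at least 1 library without a UMI, so these values are set in part by the 10 CPM added and give no order. With such libraries at 3 UMIs the means were -2.72 for Tshz2, -2.75 for Myl4, -2.19 for Nptx1, -3.02 for Ncald, -3.18 for Rprm and -2.98 for Trbc2, and Nptx1 no longer met the threshold in all 4. Most UMIs of these genes in the 62 cells were in the 23: 2 of 2 for Tshz2, 17 of 24 for Myl4, 20 of 22 for Nptx1, 103 of 127 for Ncald, 37 of 47 for Rprm and 30 of 33 for Trbc2. Over all genes the 23 cells held 107828 of 430183 UMIs. The 6 genes were picked for low levels in the 39 cells, so a larger share in the 23 follows in part from that choice.

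With libraries at 0 set to 3 UMIs, Ncald and Camk2d stayed lower in the 39 cells. The 3 pan-excitatory genes, Epha4 and Hpca had UMIs in every library, so that setting could not change their calls. No other member of the functional lists was lower in all libraries with it. Few members of these lists met the threshold in the 39 cells, and their counts are to be read beside the 0.299% higher and 1.24% lower of all genes tested. Of 33 glutamate and GABA receptor subunits, 1 was higher (Grik2) and 1 lower (Gria4, an AMPA receptor subunit, -2.04 ± 0.79), too few to read a direction from, with a median of 0.12. Gria3, another AMPA receptor subunit, was at 352, 508, 578 and 545 CPM in the 62 cells against 277, 251, 244 and 281 in the mean of the others. All 4 libraries lay above all 4 means, with a ratio of 0.87 ± 0.37, under the threshold. In the list of 46 ion channels the Kv3 gene Kcnc1 (-1.50 ± 0.72, 5 UMIs) and Kcnc2 met the threshold as lower and none as higher, with a median of -0.21; Kcnc2 had no UMI and was at least 1.76-fold lower. Of 31 monoamine, acetylcholine and peptide receptors, Htr2c, a serotonin receptor, and Chrm2, a muscarinic receptor, met it as lower and none as higher, both with no UMI in the 39 cells. Htr2c had no UMI in the 62 cells, at least 6.78-fold below the mean of the others (47.3 CPM).

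Of 47 axon guidance and adhesion genes, Reln and Pcdh8 met the threshold as higher and Slit1, Epha4, Sema5a and Cdh12 as lower in the 39 cells. Pcdh8 did so with 1 UMI in Setd1a+/- replicate 2. Slit1, Sema5a and Cdh12 had no UMI there and were at least 1.98-fold, 4.76-fold and 2.52-fold lower. Epha4, an ephrin receptor, was at 41.4, 106, 133 and 49.4 CPM there against 259, 250, 282 and 262 CPM in the mean of the others. Robo1, a receptor for Slit proteins, had 32 UMIs in the 62 cells, all of them in the 39 and none in Setd1a+/- replicate 2. Of 24 genes of calcium binding and signalling, Hpca (hippocalcin), Ncald and Camk2d were lower and none higher. No member of the 22 neurofilament and axonal cytoskeleton genes met the threshold, with a median of 0.30; of its most abundant members Stmn1 was at -0.57 ± 0.14, Stmn2 at -0.29 ± 0.30, Stmn3 at 0.09 ± 0.13 and Map1b at -0.04 ± 0.17 in the 39 cells. None of 33 nuclear genes of oxidative phosphorylation (median 0.13), 19 immediate early genes (median -0.57) or 14 genes of H3K4 methyltransferase complexes (median -0.07) met it either. Of 7 POU-domain genes tested, Pou3f1 met it as higher. The layer 6b list had 2 tested genes and no call.

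DL-Etv1 had the highest correlation with the 39 cells, at 0.79 against 0.77 for DL-Nnat, a difference that was not tested. Set against DL-Etv1 alone, 37 genes (0.326%) were at least 2-fold higher and 115 (1.01%) lower in the 39 cells in all 4 libraries. Of the 34 genes higher against the mean of the 6 subtypes 23 were among the 37, and of the 141 lower genes 71 were among the 115. A call against that mean is therefore no call against each subtype. The higher genes included Bcl11b (3.82 ± 0.25), Igfbp4 (3.47 ± 1.29), Pou3f1 (3.46 ± 0.54) and Lypd1 (2.64 ± 1.24). DL-Etv1 had 0 to 3.57 CPM of Pou3f1 by library, so the 10 CPM added bears on these values and they give no order. Fezf2 met the threshold here (1.99 ± 0.35). Lypd1, also carried by DL-Tshz2, had 47 UMIs in the 62 cells, all of them in the 39. Within DL-Etv1, 26 of 383 cells (6.79%) held at least 2 label genes with Bcl11b or Fezf2, at a median depth of 10331 UMIs, against 32 of the 39 cells.

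The number of DL-Pou3f1 cells was too low to test expression between genotypes. Setd1a (chr7:127776670-127800122, plus strand) had 4 UMIs in the 62 cells, all in WT libraries, and 0 in the Setd1a+/- libraries, which allow up to 26.7 and 58.4 CPM. Over all annotated excitatory neurons its level was 11.1, 12.5, 6.41 and 10.5 CPM in the order of libraries above; the counts do not tell the intact allele from the altered one. DL-Pou3f1 made up 1.71% (95% Wilson interval 0.829 to 3.48) and 2.94% (2.12 to 4.07) of the excitatory neurons in WT replicates 1 and 2, and 1.73% (0.995 to 3.01) and 1.65% (0.840 to 3.23) in Setd1a+/- replicates 1 and 2. The Setd1a+/- libraries lay within the WT range or just under it, and the mean was lower by 0.632 percentage points (-0.632; two-sided exact permutation test, p = 0.667, where 2 against 2 libraries cannot go below 0.333). The difference was -0.0138 points without WT replicate 2 and -1.25 points without WT replicate 1. Paired by replicate number the exact p was 1.00. Counting the 39 cells alone, the shares were 1.46 and 1.51% in WT and 1.73 and 0.620% in Setd1a+/- libraries, a difference of -0.312 points (exact permutation p = 1.00).

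Of 3867 genes with at least 20 UMIs in the 62 cells, 195 (5.04%) had genotypes whose libraries did not overlap and whose means were at least 2-fold apart, with 92 (2.38%) higher and 103 (2.66%) lower in Setd1a+/-. By replicate pairs, with a 2-fold difference the same way in both, the count was 77. Leaving out 1 library leaves 1 in a genotype, which makes non-overlap easier to meet, so such counts cannot be set against the 195. Among the 66 named genes with enough UMIs 3 separated the genotypes by the first rule, Chst8, Nfia and Kmt2d. All were lower in Setd1a+/-, a share (3 of 66) near that of all genes. Chst8 no longer did so with the Setd1a+/- library at 0 set to 3 UMIs. Nfia and Kmt2d had UMIs in every library, so that setting could not change them. Over all genes the count with that setting was 161. Nfia, a nuclear factor I gene, was at 168, 135, 71.1 and 19.5 CPM in that order, the last from 1 UMI. Kmt2d, an H3K4 methyltransferase, had means of 133 CPM in WT and 55.0 CPM in Setd1a+/- libraries. Of the genes higher or lower than the mean of the other subtypes with enough UMIs, 10 and 4, none separated the genotypes. In the 39 cells the count was 266 of 3101 genes (8.58%).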

How the data were processed

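Single-cell libraries of the PFC (10x Genomics Chromium) were counted by the authors with Cell Ranger 3.0.2, and the deposited matrices hold raw UMI counts per gene and droplet barcode; the submitters' processing notes name mm10. The authors dropped cells with under 800 genes or over 10% mitochondrial reads, integrated the libraries in Seurat 3.2.0 and clustered them. Their annotation table gives each cell's subtype and library, the percent of mitochondrial reads as the authors computed it, and embedding and principal component scores as deposited. The gene-by-cell tables and the nucleus accumbens files were not used here.

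Within a library the UMIs of a subtype's cells were added up and given as CPM. Per library, log2((CPM of DL-Pou3f1 + 10)/(mean CPM of the other 6 subtypes + 10)) was taken, and a gene with at least 50 excitatory UMIs was called at 2-fold in all 4 libraries. No test was made of a subtype against the rest. Shares were compared by exact permutation over libraries. Intervals and floors (3 UMIs) cover counting error only, and p-values the spread between libraries only. No doublet caller was run; the annotation was used as deposited. Libraries of the same number belong to the same replicate by the study's methods, and their deviations correlated at 0.66 over 11362 genes in excitatory neurons and 0.16 over 3867 genes in DL-Pou3f1. Genes were named by rule: the 4 label genes, Setd1a, the 20 highest and 8 lowest called genes, and called or most abundant list members; all others (Fezf2, Etv1, Robo1, genes called in the 39 cells alone and those of the 23 cells) were named after their values were seen. The members and gene lists were chosen with earlier results of these data known. The ratio and call steps were run on simulated Poisson counts without variation between libraries, with changes set only in abundant genes. Every gene called higher over all DL-Pou3f1 cells had fewer excitatory UMIs than those. The simulation therefore does not show how the calls do at such counts. All 4 libraries hold 15154268 to 24594416 UMIs in all. Of 31053 gene IDs 30934 were in GENCODE vM21, and Python 3.11.15, numpy 2.4.6, scipy 1.17.1, pandas 2.3.3, matplotlib 3.10.9, R 4.3.3 and edgeR 4.0.16 (TMM factors) were used. Some genes of the lists are not reported here.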

Additional observations from a re-analysis of the deposited data

Results flagged for a closer look

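The log2 ratio of DL-Pou3f1 to the mean of the other subtypes, on CPM plus 10, was compared with 0 in each library. For 3 of the 94 named genes it was on one side in both WT libraries and on the other in both Setd1a+/- libraries. The share over all genes is not given here, so the count of 3 cannot be read as high or low. The difference itself was not tested. For Setd1a the difference between genotypes was -1.14, from 4 UMIs in WT and 0 in the Setd1a+/- libraries. Those zeros allow up to 26.7 and 58.4 CPM against 6.16 and 10.6 CPM in the other subtypes, so no level below the mean is shown. For Pou3f2, a relative of Pou3f1, the difference was 1.47 on 12 UMIs, and the 0 in WT replicate 1 allows up to 50.3 CPM against 30.1 CPM in the others, so its direction is not shown either. For Pcdh7, a protocadherin, the difference was 1.06, with 67.1 and 174 CPM in WT against 163 and 180 CPM in the other subtypes, and 169 and 234 CPM in Setd1a+/- against 110 and 182 CPM. The log2 ratio of Pcdh7 in WT replicate 2 was -0.05, so its side of 0 is not shown there.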

How the results depend on the processing

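The cells of a library limit what can be said: 1 UMI was worth up to 19.5 CPM in the 62 cells and 49.4 CPM in the 39. Counts of called genes followed the pseudocount. With 1 CPM, 36 genes were higher and 568 lower in the 62 cells (12 and 67 with 10 CPM), and 54 and 917 in the 39 cells (34 and 141). With 50 CPM the counts were 2, 6, 10 and 29. Without a replicate block, as a ratio of means over libraries, 112 were higher and 234 lower. Thinning to 2000 UMIs a cell left fewer UMIs and gave 335 lower genes. With libraries at 0 set to 3 UMIs, 12 genes were lower in the 62 cells, 19 in the 39, and 161 separated the genotypes. Leaving out 1 library can only keep or raise the counts of called genes. It gave 14 to 28 higher and 84 to 155 lower genes in the 62 cells, and 43 to 67 and 176 to 301 in the 39. The 39 cells gave 34 and 141 in place of 12 and 67, and with TMM factors 16 higher genes in the 39. Counts of genes separating the genotypes (195) were 236 to 752 without 1 library, 77 with the replicate block, 32 with a pseudocount of 50 CPM, 24 with at least 50 UMIs and 1226 with no filter. The share difference ran from -1.25 to -0.0138 points without 1 library and was -0.632 paired by replicate block, with no p under 0.333. Of 1636 values of 94 named genes under 18 alternatives, 1528 moved by less than 1 SD, 108 by more, and none of the 30 called genes changed direction. Alternatives that use the 39 cells or the 3 UMIs were chosen after seeing the data. The causes were not tested.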

Other observations

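Among the 23 scattered cells, the genes with at least 10 UMIs and the highest pooled log2 ratios to the mean of the other 6 subtypes were Deptor, an inhibitor of mTOR (15 UMIs, 2.01), Rbm15 (10 UMIs, 1.83), Tmem91 (23 UMIs, 1.77), Insig1, a regulator of sterol synthesis (24 UMIs, 1.71), Spry2, an inhibitor of receptor tyrosine kinase signalling (35 UMIs, 1.59), and Chga, the granin chromogranin A (47 UMIs, 1.58). These ratios have no replicate check, since Setd1a+/- replicate 1 had no such cell and WT replicate 1 had 1. In the list of layer 5 extratelencephalic genes the 23 cells had a pooled median of -0.34.

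The 1 cell of the 39 that lay outside the island held 11464 UMIs, with 0 UMIs of Pou3f1, 3 each of Parm1, Stxbp6, Chst8 and Bcl11b, and 4 of Fezf2. Reln had 16 of its 63 excitatory UMIs (25.4%) in the 39 cells and Vat1l had 29 UMIs there and none in the 23.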
